A study of Mus musculus with 18 samples.

Results

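The array used for mouse lung carried 2497 probes named by the accession of a cDNA clone, written as AK followed by digits, among 55681 probes that are not controls (4.48%). These probes covered 2457 accessions, and they were chosen by that name alone, with no use of a measured value. They were set against the 26536 probes named by a RefSeq mRNA accession (NM_), which made up 47.7% of the array and covered 20809 accessions. The lungs came from 18 male MutaMouse animals aged about 12 weeks, a transgenic strain that carries a reporter gene for mutation testing in all groups, the controls included. The mice were dosed by gavage on each of 28 days and killed 72 h after the last dose. The vehicle group of 5 mice received olive oil alone, and 4 mice (low), 5 mice (medium) and 4 mice (high) were given daily doses of the 4PAH-Mix worth 12.5, 25 or 50 mg of benzo(a)pyrene (BaP) equivalents per kg of body weight, a mixture of BaP, benz(a)anthracene, benzo(b)fluoranthene and chrysene. Each mouse had 1 array, with its lung RNA in the Cy5 channel and Universal Mouse Reference RNA, a pool from 11 mouse cell lines, in the Cy3 channel. The dyes were not swapped, so a log2 ratio in this text is lung over reference RNA, and a change with dose is a difference between 2 such ratios.

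Polycyclic aromatic hydrocarbons bind the aryl hydrocarbon receptor (AHR), a transcription factor that turns on the enzymes that metabolize them, and some of the metabolites form adducts with DNA. AK accessions are mostly records of single full-length mouse cDNA clones from large cloning projects. Such clones include mRNAs of known genes, mRNAs with other ends, RNAs that code for no protein and copies of unspliced or intronic RNA, and many have no counterpart among curated RefSeq mRNAs. The files used here pair the AK probes with an accession but with no gene name, clone description, sequence or position, and none of the accessions matched the RefSeq table (0 of 2497). Gene names for 9 of the probes were therefore taken from the study's own probe list, as names only, and all others are called by their accession. That list holds the probes the study itself called changed, by its adjusted p and a 1.5-fold limit, in at least 1 dose group of a mixture.

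Clone probes were detected less often than RefSeq mRNA probes on each of the 18 arrays. A probe counts as detected here where the scanner software marked its Cy5 signal as well above background. Between 42.9% and 55.7% of the AK probes were detected in lung RNA on an array, against 68.9% to 75.5% of the NM_ probes, and the difference on the same array ran from 19.8 to 26.6 percentage points. In the Cy3 channel, which holds the reference RNA, the shares were 38.2% to 48.1% and 65.7% to 72.5%. So the lower detection of the clones was present in both RNAs.

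Detection of the AK probes did not separate the dose groups. It was 49.1%, 46.2%, 45.2%, 45.8% and 55.7% in the vehicle mice and 48.1%, 46.9%, 45.1% and 52.8% in the high-dose mice. The low-dose mice had 49.1%, 42.9%, 44.8% and 53%, and the medium-dose mice had 43.8%, 46.8%, 47.1%, 43.3% and 48.7%. The groups overlapped throughout, and the highest value in each group came from the array on the third slide, where detection of AK probes averaged 52.6% against 46.6% and 45.2% on the other slides. Against the vehicle mean of 48.4% ± 4.36 (SD, n = 5), the means were 47.4% ± 4.54 (n = 4) at the low, 46.0% ± 2.32 (n = 5) at the medium and 48.2% ± 3.30 (n = 4) at the high dose. The differences of -0.941, -2.42 and -0.17 percentage points had adjusted p-values of 0.944 in each case (two-sided exact permutation test over mice, Benjamini-Hochberg over the 3 doses). The gap between NM_ and AK detection on the same array was 23.2 ± 2.02 points in the vehicle group and differed from it by 0.684, 1.93 and 0.989 points at the 3 doses, with adjusted exact p-values of 0.627, 0.286 and 0.627. With differences taken from the slide mean, the gap was wider by 1.93 points at the medium dose (adjusted exact p = 0.0476) and by 1.24 points at the high dose (adjusted exact p = 0.0238).

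**Figure D1:**
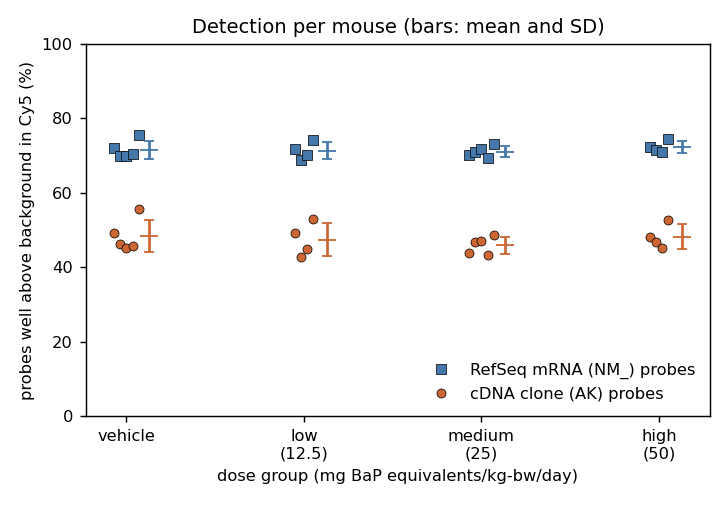
Share of probes well above background in Cy5 (%) on each mouse's array, by dose group, for AK and NM_ probes, with the mean and SD of each group beside the points. Each AK point (42.9% to 55.7%) lies below each NM_ point (68.9% to 75.5%), and the 4 groups of AK points overlap.

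Most clone probes were either seen on every array or on none. In lung RNA, 928 AK probes (37.2%) were detected on all 18 arrays, 905 (36.2%) on none and 664 (26.6%) on some. Of the NM_ probes, 65.1% were detected on all arrays and 19.8% on none. Neither channel of any array detected 735 AK probes (29.4%), while 48 were detected in lung on all arrays and never in the reference, and 21 the other way round. Hardly any AK probe switched between off and on with dose. AK038006 was detected on the arrays of all 5 vehicle mice and of 0 of the 4 high-dose mice, its change of -0.36 on the log2 scale had an adjusted p of 0.101 (limma), and no AK probe showed the opposite switch.

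Detection differed between ranges of accession numbers. Of the 716 probes with accessions up to AK021396, 30.9% were detected on all arrays. The share was 40.4% for the 1115 probes from AK027968 to AK090292 and 38.2% for the 652 probes from AK131677 to AK178559. Only 7 probes carried later accessions, and all 7 were detected on each array. Another 7 probes lay between, from AK122501 to AK129480, and 1 of them (14.3%) was detected on all arrays. These shares describe the probes on the array, which are not replicates of a condition, and were not tested.

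Where they were detected, clone probes were dimmer than RefSeq mRNA probes and their ratios spanned a narrower range. Over probes detected on all 18 arrays, the median of the mean log2 intensity of both channels was 7.63 for AK and 9.32 for NM_ probes. Their log2 ratios in the vehicle group had a median of 0.39 for AK and 0.10 for NM_ probes, and the middle 90% of the probes lay between -0.88 and 1.93 for AK and between -1.51 and 2.71 for NM_ probes. A vehicle ratio above 1, with detection on all vehicle arrays, was found for 188 AK probes and 3486 NM_ probes. These are 7.53% and 13.1% of all probes of each class, detected or not. Detection on all vehicle arrays itself held for 1023 AK probes (41%) and 17820 NM_ probes (67.2%), so these shares also carry the difference in detection. The median SD between mice of a group was 0.16 for AK and 0.15 for NM_ probes, so a detected clone probe was about as repeatable as a detected mRNA probe.

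The highest lung-over-reference ratios among AK probes belonged to AK013461, AK035826, AK134885, AK077025 and AK087349, whose vehicle means were 5.14 ± 0.27, 4.63 ± 0.27, 4.47 ± 0.53, 4.28 ± 0.27 and 4.23 ± 0.20 on the log2 scale (SD, n = 5). All 5 were detected in lung on the 18 arrays. AK035826 was detected in the reference on 1 of the 5 vehicle arrays and AK077025 on 3, so the reference side of these ratios was near background. Of these clones, AK087349 passed the call described below. AK077025 was lower at the high dose by 0.51 on the log2 scale (limma adjusted p = 0.00893), which is under the fold limit, and was called without vehicle mouse 3 (-0.63). The lowest ratios belonged to AK007918, with a vehicle mean of -5.58 ± 0.17, AK015404 with -3.58 ± 0.13, AK195427 with -3.31 ± 0.22 and a pair of probes for AK090034 with -3.06 ± 0.27 and -2.69 ± 0.28. None of these 5 probes was called at the high dose. These probes were picked by their ratios, which are a description.

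Each dose was compared with the vehicle in 1 limma fit over the whole array, and a call needed a Benjamini-Hochberg adjusted p no higher than 0.05 together with a 1.5-fold change or more. The 3 comparisons share the vehicle arrays. The low dose called 2 AK probes, 1 higher and 1 lower, against 0.0898% of all probes called (0.0647% higher and 0.0251% lower). The medium dose called 12, 3 higher and 9 lower, against 0.726% of all probes (0.278% higher, 0.447% lower). The high dose called 23, 4 higher and 19 lower, which is 0.921% of the AK probes against 1.20% of all probes (0.399% higher, 0.805% lower). At each dose the share of clones called (0.0801%, 0.481% and 0.921%) lay below that of all probes. Among probes detected on all 18 arrays the shares were close. They were 0.216%, 1.29% and 2.48% of AK probes and 0.209%, 1.38% and 2.21% of NM_ probes from the low to the high dose. Between the high and the low dose, limma called 0 AK probes against 0.0449% of all probes. An unadjusted p under 0.05 (limma) was found in that comparison for 193 AK probes (7.73%) and for 7.29% of NM_ probes. This likeness holds over all probes, detected or not. Among probes detected on all 18 arrays the shares were 11.7% of AK and 8.51% of NM_ probes, with 85 of the 109 AK probes lower at the high dose. At a mean log2 intensity of 9 or more they were 19.6% and 7.72%. The difference between these shares was not tested. With each array centred on its median in place of loess, the low and medium doses had 0 called AK probes and the high dose 2, both of them rises, and all 19 falls kept their direction without a call. Both low-dose calls were also lost with the scanner software's ratios, with scaling between arrays and with Cy5 alone.

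Among the calls, falls outnumbered rises more for clones than for RefSeq mRNAs. At the high dose 82.6% of the called AK probes were lower, against 53.9% of the 401 called NM_ probes (185 higher, 216 lower). This was not particular to clones. The share lower was 77.8% of 90 called probes named by a chromosome position and 87.9% of 33 named by an Ensembl transcript. For RefSeq non-coding RNA probes it was 92.9% of 14. By the adjusted p alone, without a fold limit, the high dose called 75 AK probes, 17 higher and 58 lower, and 836 NM_ probes higher and 707 lower, with 4.18% of all probes called. At the medium dose this gave 8 AK probes higher and 58 lower, and 769 NM_ probes higher and 550 lower, with 3.54% of all probes called. The counts are a description of the probes, since probes of one array are not independent.

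All 23 clones called at any dose were called at the high dose, and they include the 12 called at the medium dose. All 23 were detected in lung on the 18 arrays. For each of them, the 4 high-dose mice lay beyond all 5 vehicle mice, which the call makes likely. The medium-dose mice did so for 16 of them and the low-dose mice for 8. The group means were ordered by dose for 22 of the 23, the exception being AK087349. The change at the low dose was, in the median, 46.6% of that at the high dose for the falls and 56.6% for the rises, both on the log2 scale. The clones were picked by their high-dose call against the same 5 vehicle mice. The counts for the other doses, the order of the means and these percentages therefore partly follow from that choice. Shares of all probes with such non-overlap or order are not given here, so the counts are a description. Mice of one dose sat in matching columns of the slides, so array position and dose cannot be told apart.

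**Figure D2:**
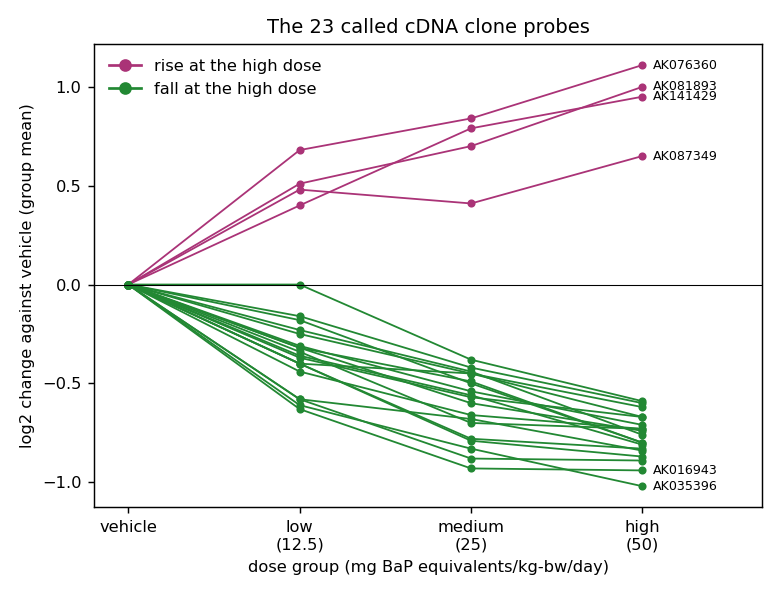
Log2 change against the vehicle group (group means, with the vehicle at 0) of the 23 AK probes called at the high dose, by dose group in mg BaP equivalents per kg and day. The 4 rises reach 0.65 to 1.11 and the 19 falls reach -0.59 to -1.02 at the high dose.

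AK076360 had the largest rise and was the clone called higher at all 3 doses. Its log2 ratio was 0.72, 0.71, 0.28, 0.48 and 0.46 in the vehicle mice and 1.02, 1.24, 0.95 and 1.64 in the low-dose mice. It was 1.39, 1.3, 1.08, 1.42 and 1.64 at the medium and 1.85, 1.53, 1.37 and 1.8 at the high dose. Each exposed mouse lay above the highest vehicle mouse, and the low and medium groups overlapped. The rises were 0.68 ± 0.14 (SE), 0.84 ± 0.13 and 1.11 ± 0.14 from the low to the high dose, the last a 2.16-fold change, with limma adjusted p-values of 0.0453, 0.000735 and 5.21e-05.

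AK081893, listed by the study as D7Wsu130e, and AK141429, listed as BC023202, rose at the medium and high doses. AK081893 was 0.38, 0.79, 0.02, 0.65 and 0.47 in the vehicle mice and 1.69, 1.63, 1.03 and 1.48 in the high-dose mice. AK141429 was 0.45, 0.72, -0.11, 0.49 and 0.17 in the vehicle mice and 1.59, 1.11, 1.09 and 1.41 in the high-dose mice. For both clones the vehicle and high-dose mice did not overlap, and both had their lowest vehicle value in mouse 3. The changes were 0.51, 0.70 and 1.00 ± 0.15 (SE at the high dose) for AK081893 over the low, medium and high dose, with limma adjusted p-values of 0.238, 0.00592 and 0.000297. For AK141429 they were 0.40, 0.79 and 0.95 ± 0.15, with limma adjusted p-values of 0.435, 0.00236 and 0.000493.

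AK087349 was the one called clone with a very high ratio in the vehicle group. Its log2 ratio was 4.49, 4.22, 3.93, 4.24 and 4.30 in the vehicle mice and 5.00, 4.84, 4.85 and 4.86 in the high-dose mice. The low-dose mice (5.00, 4.73, 4.74 and 4.39) overlapped the vehicle mice. The rise at the high dose was 0.65 ± 0.14 (limma adjusted p = 0.00762), a 1.57-fold change, and those at the low and medium doses did not pass the test (adjusted p = 0.239 and 0.0956). Without vehicle mouse 3 the rise was 0.58 and under the fold limit.

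AK035396 had the largest fall. Its log2 ratio was 0.09, 0.02, 0.75, 0.27 and -0.15 in the vehicle mice and -0.36, -0.30, -0.24 and -0.78 in the low-dose mice. At the medium dose it was -1.04, -0.68, -0.27, -0.55 and -0.63, and at the high dose -1.02, -0.95, -0.59 and -0.76. Each exposed mouse lay below the lowest vehicle mouse, and mouse 3 was the highest of the vehicle group. The changes were -0.61, -0.83 and -1.02 ± 0.16 over the low, medium and high dose, with limma adjusted p-values of 0.18, 0.00323 and 0.000597, and the last is a 2.03-fold decrease.

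AK016943 was among the brightest AK probes, with a mean log2 intensity of 14.75, and was the clone called lower at all 3 doses. Its log2 ratio was 1.25, 1.19, 1.20, 1.49 and 1.05 in the vehicle mice, 0.64, 0.71, 0.68 and 0.42 at the low, 0.11, 0.19, 0.58, 0.17 and 0.48 at the medium and 0.03, 0.15, 0.51 and 0.50 at the high dose. No exposed mouse reached the vehicle range. The changes were -0.63, -0.93 and -0.94 ± 0.12 with limma adjusted p-values of 0.0307, 6.84e-05 and 5.87e-05, so that nearly all of the fall was present at the medium dose. The high-dose call was lost with Cy5 alone (-0.58, under the fold limit) and with median centring (-0.67).

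The other 8 of the 10 largest falls at the high dose were AK132033 (-0.89), AK146780 (-0.87), AK019465 (-0.84), AK080285 (-0.83), AK004107 (-0.81), AK135613 (-0.80), AK133468 (-0.80) and AK148702 (-0.76), all log2 changes called by limma. AK146780, with a mean log2 intensity of 14.65, was 2.03, 1.93, 2.10, 2.01 and 1.68 in the vehicle mice and 1.16, 1.23, 1.03 and 0.90 in the high-dose mice. AK132033, at 14.42, was 0.18, 0.06, 0.74, 0.22 and 0.22 in the vehicle mice and -0.83, -0.76, -0.47 and -0.36 in the high-dose mice. For neither clone did the vehicle and high-dose mice overlap. AK148702 was the least secure of these calls. Its adjusted p was 0.0476, and it lost the call when any of 12 of the 18 mice was left out, among them each high-dose mouse and each vehicle mouse but mouse 5. The remaining 9 falls were AK161320, AK133410, AK139836, AK086046, AK016424, AK051413, AK047917, AK037585 and AK080477, with decreases of 1.51-fold to 1.67-fold. Of these, AK047917 lost its call without vehicle mouse 1 or 3 or high-dose mouse 16 (-0.55, -0.58 and -0.54). It also lost it with median centring (-0.44), scaling between arrays (-0.55) and Cy5 alone (-0.58).

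Some of the falling clones moved together from mouse to mouse. After subtracting group means, the 171 pairs among the 19 falls had a median correlation of 0.31 over the 18 arrays, with a range from -0.50 to 0.99. AK080285 and AK146780 correlated at 0.99, AK133468 and AK135613 at 0.90 and AK035396 and AK132033 at 0.89, and 10 pairs among 10 clones reached 0.80 or more. The points of a correlation share their array and slide. No median for pairs of other probes is given here, so the 0.31 has no background to be read against. Probes this close may read the same or a near-identical RNA, which could not be checked without probe sequences, so the number of separate transcripts among the 19 falls is not known. Vehicle mouse 3 had the highest vehicle value for AK035396, AK132033, AK019465, AK004107, AK016424, AK037585, AK080285, AK146780, AK161320, AK133468 and AK135613. For the remaining falls another vehicle mouse was highest. All 4 rises had their lowest vehicle value in mouse 3. Without that mouse, 19 of the 23 clones called at the high dose kept their call, and all 23 kept their direction.

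The falls lay among bright probes. Of the 19, 15 had a mean log2 intensity of 9 or more and 9 of 11 or more, while 199 AK probes (7.97%) and 60 AK probes (2.40%) were that bright. As a class, clone probes also shifted downward with intensity at the high dose. The median log2 change of AK probes was -0.06 for those of intensity 7 to 9, -0.14 for 9 to 11, -0.23 for 11 to 13 and -0.32 for 13 or more. The NM_ probes of the same ranges had medians of 0.05, 0.04, 0.01 and -0.03. Below an intensity of 7, where 1750 AK probes lay, the medians were near 0 in both classes.

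**Figure D3:**
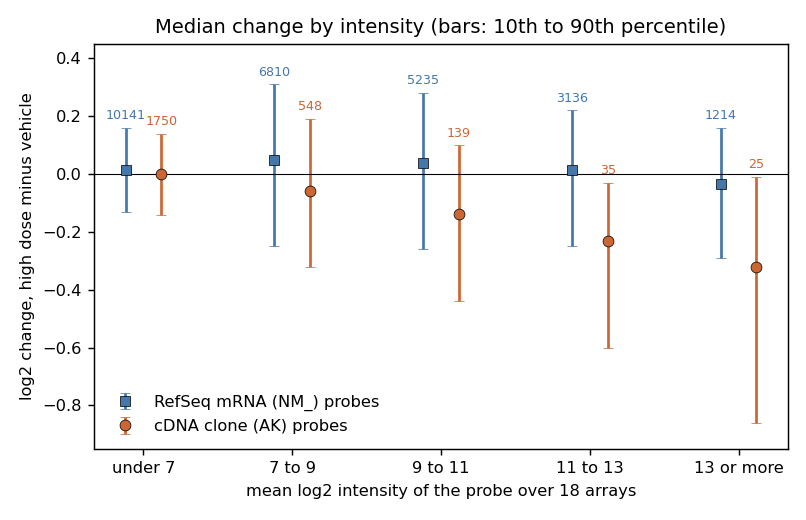
Median log2 change between the high dose and the vehicle (points) with the 10th to 90th percentile of probes (bars), by mean log2 intensity over the 18 arrays, and the number of probes above each bar. AK medians go from near 0 below an intensity of 7 to -0.32 at 13 or more, while NM_ medians stay between -0.03 and 0.05.

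The shift was then read mouse by mouse as 1 value per array, the median log2 ratio of the 60 AK probes of intensity 11 or more minus that of the 4350 NM_ probes in that range. The limit was chosen after the values were seen. This difference was 0.508, 0.504, 0.645, 0.529 and 0.601 in the vehicle mice and 0.451, 0.460, 0.416 and 0.295 in the low-dose mice. It was 0.241, 0.456, 0.387, 0.346 and 0.173 at the medium and 0.236, 0.245, 0.343 and 0.332 at the high dose. All 13 exposed mice lay below all 5 vehicle mice, and the exposed groups overlapped each other. Against a mean of 0.557 ± 0.0625 in the vehicle group it changed by -0.152 (low), -0.237 (medium) and -0.268 (high), each with an exact p of 0.00794, the smallest the design allows, and the same adjusted value over the 3 doses. The high-dose change was -0.266, -0.244 and -0.269 within slides 1, 2 and 3. These rest on 2, 1 and 1 high-dose mice against 2, 2 and 1 vehicle mice.

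**Figure D4:**
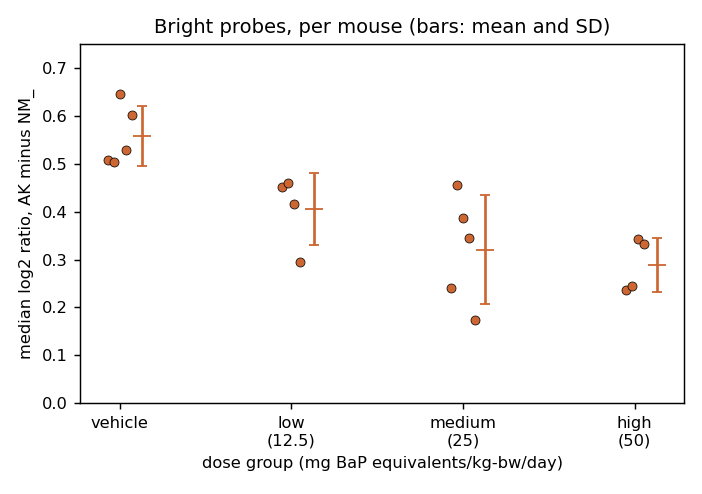
Median log2 ratio of 60 AK probes minus that of 4350 NM_ probes, all of mean log2 intensity 11 or more, for each mouse by dose group in mg BaP equivalents per kg and day, with the mean and SD of each group. The vehicle mice sit between 0.504 and 0.645, above each of the exposed mice (0.173 to 0.460).

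The direction held for most of the bright clones. Of the 60, 54 had a lower mean at the high dose than in the vehicle group, 52 at the medium and 54 at the low dose, while 50.2% of the bright NM_ probes were lower at the high dose. In single tests at the high dose 9 were called lower and 1 higher, the latter AK087349, which is 16.7% of the bright AK probes. Of the 4350 bright NM_ probes 51 were called lower and 34 higher (1.95%), and of all probes 1.20% were called. The change lay in the Cy5 channel. For the same bright probes, the AK minus NM_ median of the log2 Cy5 intensity changed by -0.405 at the high dose (adjusted exact p = 0.00794) and that of Cy3 by 0.001 (adjusted exact p = 0.976). From an intensity of 9 up, the shift was also seen at each level of the ratio. In all 12 bins that cross intensity (9 to 11, 11 or more) with the mean log2 ratio over all arrays, the AK median change at the high dose was below the NM_ median. Some of these bins held only 6 AK probes, and at 9 to 11 with a ratio of 2 or more the medians were -0.04 and -0.02. At an intensity of 7 to 9 with a ratio of 2 or more, the AK median was not lower (0.09 against 0.08).

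Position-named probes showed a downward shift too, while the other classes depended on the intensity range. At an intensity of 11 or more, the median of the 186 probes named by a chromosome position changed against that of the NM_ probes by -0.221 at the high dose (adjusted exact p = 0.0119), beside -0.268 for AK probes. That of the 78 RefSeq non-coding RNA probes (NR_) changed by -0.178 (adjusted exact p = 0.0357). The 238 probes named by an Ensembl transcript differed by -0.028, which did not pass the test (adjusted exact p = 0.587). From an intensity of 9 up, the changes were -0.208 for AK, -0.184 for position-named and -0.099 for Ensembl probes (adjusted exact p = 0.0119, 0.00794 and 0.0119), and the difference of -0.103 for NR_ probes did not pass (adjusted exact p = 0.119). In that wider range 15 of the 199 AK probes were called lower and 1 higher. The counts were 45 and 4 of 670 for position-named, 24 and 0 of 433 for Ensembl, 9 and 0 of 150 for NR_ and 128 and 84 of 9585 for NM_ probes. The shifts of these classes were not tested against each other.

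Over all 2497 AK probes, most of them dim, the shift was small. The median log2 ratio of AK minus NM_ probes was 0.0521 ± 0.00575 in the vehicle group and changed by -0.0135 (low), -0.0182 (medium) and -0.0204 (high). The adjusted exact p-values were 0.0873, 0.0119 and 0.0119. With the scanner software's ratios the change was the same -0.00146 at each dose, so this median hardly varied and cannot decide whether the shift holds there. For the bright probes those ratios gave -0.295 at the high dose (adjusted exact p = 0.00794). Over the 928 AK probes detected on all arrays the change at the high dose was -0.083 (adjusted exact p = 0.0119).

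One called clone belongs to a gene that a RefSeq mRNA probe also reads. The study lists AK037585 as Pon2, the gene of paraoxonase 2, an intracellular lactone-hydrolysing enzyme with antioxidant activity, and NM_183308 is its mRNA. The clone's log2 ratio was 1.09, 1.1, 1.12, 0.97 and 0.97 in the vehicle mice, 1.06, 0.88, 0.84 and 0.76 at the low, 0.52, 0.52, 0.73, 0.55 and 0.81 at the medium and 0.51, 0.38, 0.41 and 0.51 at the high dose. The mRNA probe was 0.87, 1.1, 0.81, 0.84 and 0.94 in the vehicle mice and 1.51, 1.01, 1.19 and 0.95 at the high dose. All high-dose mice lay below all vehicle mice on the clone probe, and the groups overlapped on the mRNA probe. The clone changed by -0.60 ± 0.08 at the high dose (limma adjusted p = 0.000125), a 1.52-fold decrease just past the fold limit, and the mRNA probe by 0.25 ± 0.12 (limma adjusted p = 0.316). The clone's call was lost without vehicle mouse 3 or high-dose mouse 17 (-0.58 each) and with scaling between arrays (-0.57), all under the fold limit, and with median centring (-0.43, adjusted p = 0.745).

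On the same array, the Pon2 clone minus the mRNA probe had a mean of 0.14 ± 0.13 in the vehicle mice (SD, n = 5). It fell to -0.24 ± 0.20 at the low dose (n = 4), -0.50 ± 0.31 at the medium (n = 5) and -0.71 ± 0.24 at the high dose (n = 4). Each exposed mouse was below each vehicle mouse, and the exact p was 0.00794 at each dose, also after adjustment over the 3 doses. The pair was picked because the clone was called, so its fall was part of the choice, while the mRNA probe was not used to choose it. A clone probe and an mRNA probe of one gene need not read the same RNA, since the clone may come from another end, from an intron or from the other strand. Which of these holds for AK037585 could not be read from the files used here.

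**Figure D5:**
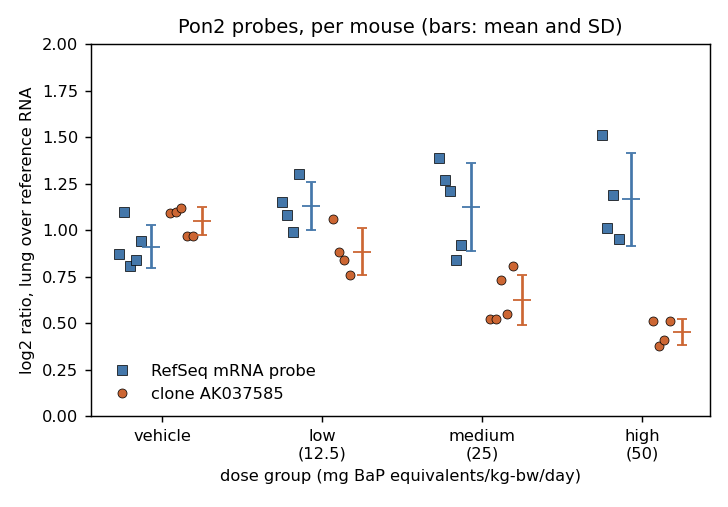
Log2 ratio of lung over reference RNA for the Pon2 clone AK037585 and the Pon2 mRNA probe in each mouse, by dose group in mg BaP equivalents per kg and day, with the mean and SD of each group. The clone goes from 0.97 to 1.12 in the vehicle mice to 0.38 to 0.51 in the high-dose mice, while the mRNA probe of the high-dose mice (0.95 to 1.51) overlaps that of the vehicle mice (0.81 to 1.1).

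The start of Pon2 is shown because, among the called clones that the study's list names, Pon2 is the one for which a RefSeq mRNA probe was found here, and the hydrocarbons of the mixture are AHR ligands. The stretch of 300 bases lies on the minus strand at chr6:5298291-5298590 of RefSeq's GRCm38.p6 and spans the gene's start, written 5′ to 3′.
Pon2 promoter: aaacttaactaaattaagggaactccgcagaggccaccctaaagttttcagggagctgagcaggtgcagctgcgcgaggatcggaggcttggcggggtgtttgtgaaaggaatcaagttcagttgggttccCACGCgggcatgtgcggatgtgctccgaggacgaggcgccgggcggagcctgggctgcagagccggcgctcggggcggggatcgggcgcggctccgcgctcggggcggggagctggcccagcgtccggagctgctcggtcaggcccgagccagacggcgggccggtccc
The capitals mark the match to GCGTG, the core that AHR binds with its partner ARNT, searched on both strands (CACGC is its reverse complement). It occurs 1 time here, and 32.4% of the 32851 promoters of this length in the table hold it. The E-box CACGTG, searched likewise, occurs 0 times, against 7.15% of the promoters. A match is a description of the letters.

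Other clones with a gene name in the study's list were not called, or have no mRNA probe here. AK016424, listed as 4931402H11Rik, was 0.78, 0.74, 0.90, 0.71 and 0.73 in the vehicle mice and -0.09, -0.01, 0.31 and 0.22 at the high dose, a fall of 0.67 ± 0.09 with an adjusted p of 0.000192 (limma, log2 scale). All its exposed mice lay below the vehicle mice. Its call was lost with Cy5 alone (-0.64, limma adjusted p = 0.076) and with median centring (-0.37). AK080477, listed as 6030451C04Rik, was 1.23 ± 0.04 in the vehicle group (n = 5) and 0.64 ± 0.34 at the high dose (n = 4), with values of 0.32, 0.62, 0.49 and 1.12. Its change of -0.59 had an adjusted p of 0.0155 (limma), and its low-dose change was 0.00, the only called fall with no lower mean at the low dose. The call was lost without vehicle mouse 2 or high-dose mouse 16 or 18 (-0.58, -0.49 and -0.54). It was also lost with median centring (-0.37), scaling between arrays (-0.56), Cy5 alone (-0.53) and the scanner software's ratios (-0.60, limma adjusted p = 0.0713).

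Airn, the long non-coding RNA transcribed antisense to Igf2r that silences it on the paternal allele, was read by AK032756. Its log2 ratio was 0.50 ± 0.12 in the vehicle group and 0.27 ± 0.19 at the high dose, a change of -0.23 that did not pass the test (limma adjusted p = 0.252). Gas2l3, which links actin filaments and microtubules, changed by -0.25 on clone AK171905 (limma adjusted p = 0.194) and by 0.06 and -0.05 on its mRNA probes (adjusted p = 0.901 and 0.874), which were detected in lung on 14 and on 1 of the 18 arrays. Marveld1 changed by -0.22 on clone AK081212 and by 0.07 on its mRNA probe (limma adjusted p = 0.449 and 0.815). Proz, the gene of the coagulation cofactor protein Z, was detected on all 18 arrays by clone AK005011 and on 0 of 18 by its mRNA probe NM_025834. The reference signal of that clone was well above background on 1 of 18 arrays, so its ratio is not given. None of these probes passed the test here in either direction, while the list that names the clones holds probes the study called for a mixture. Which mixture applied to each clone is not given here.

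Several probes of one accession could be compared for few clones. There were 35 accessions with more than 1 AK probe, 31 of them with 2 probes, and for 4 of those both probes were detected on all 18 arrays. The changes of such a pair at the high dose differed by a median of 0.13 on the log2 scale and had the same sign in 1 of the 4 pairs. AK090034 had 4 detected probes with vehicle ratios of -3.06, -2.69, -2.49 and -1.53, so the ratio of a clone depended on the probe.

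The tissue label was checked on NM_ probes. The lung markers Sftpc, Scgb1a1 and Ager had vehicle log2 ratios of 7.29 ± 0.29, 7.66 ± 0.41 and 5.77 ± 0.18, and 15 of 15 lung epithelium genes were detected on all arrays with 0 called at the high dose, against 0.399% of all probes called higher and 0.805% lower. Of 17 endothelium and stroma genes, all detected on each array, 2 were called higher and 3 lower, with a median log2 change of -0.11. The list's mean log2 ratio ran from 2.13 to 2.22 in the vehicle and from 1.95 to 2.31 in the high-dose mice. Of 25 cytotoxic lymphocyte genes, 16 were detected on all arrays and 1 on none, 3 were called lower and 0 higher, and the mean ran from 0.37 to 1.05 in the vehicle mice and from 0.21 to 0.39 in the high-dose mice. Of 17 B cell genes with a probe, 16 were detected on all arrays, 1 was called higher and 0 lower, and the mean ran from 0.36 to 1.08 and from 0.96 to 1.23. Of 18 muscle and heart genes, 8 were detected on all arrays, 0 were called, and the mean ran from 0.28 to 1.89 and from 0.28 to 1.95, with an SD of 2.60 among the vehicle mice for Myh6, a heart muscle gene. The part of these cells in the clone changes was not tested, and in whole lung fewer cells of a type and less RNA per cell cannot be told apart. Correlations between arrays of a group over detected probes were 0.959 to 0.985.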

How the data were processed

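Lung RNA of 18 mice was measured on 18 two-colour Agilent arrays on 3 slides, each slide with mice of all 4 groups. The authors deposited the scanner output of each array, with median signal intensities of Cy5 and Cy3 and their local background, neither background-subtracted nor normalized, made by Feature Extraction 11.0.1.1 per the file headers. The deposited output also gives, per spot, the log10 ratio that this software computes from background-subtracted and dye-normalized signals. A deposited table of log2 ratios, normalized within arrays, served as an alternative.

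From these, log2 ratios of the median intensities without background subtraction were normalized by loess within arrays in R 4.3.3 with limma 3.58.1. Control spots and outlier-flagged spots had no weight, and spots of one probe were averaged. Because of outlier flags 5 AK probes lacked at least 1 value. One limma fit held all 4 groups, with Benjamini-Hochberg adjustment over 55681 probes in each comparison. The study's MAANOVA test was not run here. Values with 1 number per array were compared by two-sided exact permutation tests over mice, whose smallest p is 0.00794. The fit was tested on simulated data. Replicates are separate mice per the labels.

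The members and gene lists were chosen with earlier results of these data known. The named clones were the 10 largest rises (4 existed) and 10 largest falls at the high dose among called probes with no overlap between high-dose and vehicle mice, those called at the low dose, and the 5 highest and 5 lowest vehicle ratios. Grouping of AK probes by gene name, library tissue or product, the gene lists on AK probes and neighbouring mRNA probes could not be used, because the files used here give AK probes no gene name or position. The probes' design is on mouse build mm9 per the file headers, and no probe coordinates are given here. For arrays, depth means signal over background, and precision is limited by how many arrays there were. Alternatives were normexp with an offset of 50, median centring, scaling between arrays, ratios from the scanner software, the table of the authors, Cy5 alone with quantile normalization, 2 filters on dim probes, the slide as a block, only the groups compared, no fold limit, another detection flag, 1 probe per accession, differences from the slide mean and each mouse left out. Results for bright probes and for the Pon2 pair, and leaving out slide 3, were added after the data had been seen.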

Additional observations from a re-analysis of the deposited data

Results flagged for a closer look

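Of 104 groups of values tested for a sample far from the others, 3 had one, where chance gives about 1 in 20. AK087349 was 5.00 on the log2 ratio scale in high-dose mouse 16, against 4.84 to 4.86 in the other high-dose mice. AK133410 was -0.11 in medium-dose mouse 15, against -0.52 to -0.43 in the others of that group. AK132033 was 0.74 in vehicle mouse 3, against 0.06 to 0.22 in the other vehicle mice.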

How the results depend on the processing

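No paired analysis was possible because the groups share no replicate numbers. The slides, which hold mice of several groups, allowed a comparison within slides, by the slide as a block or by differences from the slide mean. With normexp correction, the slide as a block or filters on dim probes, the counts of called AK probes stayed within 1.5 times of those reported. The low-dose count was 0 with median centring, scaling between arrays, the scanner software's ratios, Cy5 alone or without slide 3, and 1 with the authors' table or only the groups compared. Median centring gave 0 (medium) and 2 (high). On the arrays so centred, the median of bright NM_ probes ran from -1.01 to -0.58 on slide 1, from -0.86 to -0.65 on slide 2 and from -0.21 to 0.04 on slide 3, against 0.07 to 0.13 after loess. The scanner software's ratios gave 28 and 44, and no fold limit 66 and 75. Without slide 3, 1 AK probe was called between the high and low dose. Leaving out 1 mouse gave 0 to 2 (low), 10 to 20 (medium) and 21 to 28 (high) calls, and 0 to 1 between the high and low dose.

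The AK detection share at the high dose turned to 0.342 points above the vehicle with the laxer detection flag. The NM_ minus AK detection gap passed the test only with differences from the slide mean, at 1.93 points (medium) and 1.24 points (high). The AK minus NM_ median over all probes passed at the low dose with normexp (-0.0132). It no longer passed with median centring (-0.0478 medium, -0.0561 high). With the scanner software's ratios it was the same -0.00146 at each dose, so that setting cannot decide the question. With 1 mouse left out, the AK detection share differed from the vehicle by -2.8 to 0.891 points (low) and -1.7 to 1.66 points (high), the detection gap by -0.169 to 1.55 points (low) and the median over all probes by -0.0202 to -0.0107 (low).

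The shift of bright AK probes kept its direction and passed the test under each alternative run, with each mouse left out included, from -0.208 to -0.409 at the high dose, as did the Pon2 difference, from -0.755 to -0.941. Among the 23 called clones no direction changed under any alternative. Among uncalled named clones, AK134885 turned to 0.09 with median centring, 0.20 with scaling between arrays, 0.05 with Cy5 alone and 0.04 to 0.06 without vehicle mouse 1 or 2 (range over all mice left out -0.28 to 0.06), and median centring turned AK195427 to 0.01, AK090034 to 0.08 and AK032756 to 0.02. The causes were not tested.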
